A study of Mus musculus with 2 samples.

Results

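The 10 genes described here encode the constant parts of mouse antibodies and the chain that joins antibody units into polymers. They are the light chain constant genes Igkc, Iglc1, Iglc2 and Iglc3, the heavy chain constant genes Ighm, Ighd, Igha, Ighg2b and Ighg3, and Jchain. They were chosen by symbol, and all 10 were found among the 32285 genes counted. Their RNA was followed in single-cell libraries of mouse ovarian tumors, in B-lineage cells, in the other cell classes and in droplets without a cell.

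An antibody is built of heavy and light chains, each with a variable part that binds antigen and a constant part. A B cell uses either the kappa or a lambda light chain locus, and its heavy chain constant gene sets the isotype. Naive B cells make membrane IgM and IgD from Ighm and Ighd by alternative splicing, and class switching replaces these with an IgG, IgA or IgE gene further along the locus. Plasma cells and plasmablasts, called antibody-secreting cells below, make secreted forms at very high levels. In polymeric IgM and IgA the J chain binds a cysteine in the tail of the secreted heavy chain.

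Both groups were female C57BL/6 mice, 6 to 8 weeks old, that carried syngeneic p53-/-, myc, Hras ovarian cancer cells at an abraded site of the peritoneal wall. Per the labels, 7 mice were injected daily with control IgG and 8 mice with an Activin A neutralizing antibody, both for 10 days. The tumors of each group were pooled into 1 library of unsorted cells, so that each group is 1 sample, no test between groups was possible, and treatment cannot be told apart from any other difference between the libraries. All intervals given are 95% intervals that cover counting error only (exact Poisson for levels, Clopper-Pearson for shares, the conditional binomial for log2 ratios).

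Levels are given as CPM, which scales the unique molecular identifiers (UMIs, 1 per captured RNA molecule) of a gene by the UMIs of all genes in the same class of cells. They count 3′ ends and were not scaled by gene length. The libraries held 98174850 UMIs with control IgG and 74117462 with the antibody, of which 8770 and 6386 kept cells held 80208236 and 57416419. Cells were classed by marker genes that include none of the 10. B cells had at least 3 of 8 B cell markers, and numbered 269 and 156 cells. Antibody-secreting cells had Mzb1, Eaf2 and at least 6 of 10 secretory markers in all, and numbered 21 and 5 cells. In the control library Xbp1 was found in 21 of 21 antibody-secreting cells, Derl3 in 18 and Tnfrsf17 in 10. Of the 269 B cells 48 had an Xbp1 UMI, while Derl3 and Tnfrsf17 had 0 UMIs there. All of these genes are markers of the secretory gate, so their split between the classes is in part set by it. Cd79a was found in 20 antibody-secreting cells and Ms4a1 in 9. Together these 290 and 161 cells are called B-lineage cells. Of the kept cell barcodes, 19 were found in both libraries, and none of these belonged to an antibody-secreting cell.

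The genes lie at 4 loci (GRCm38 coordinates, GENCODE M21). Igkc is at chr6:70726435-70726966 on the plus strand. The lambda genes are on the minus strand of chromosome 16, with Iglc1 at 19061618 to 19062071, Iglc3 at 19065230 to 19065681 and Iglc2 apart from them at 19198396 to 19200351. The heavy chain genes are on the minus strand of chromosome 12, where they follow each other from Ighm (113418558 to 113422730) and Ighd (113406604 to 113416324) through Ighg3 (113356224 to 113361232) and Ighg2b (113302965 to 113307933) to Igha (113254830 to 113260236). Jchain is at chr5:88519809-88527891 on the minus strand.

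Iglc2 and Iglc3 are close copies. The ends of the lambda coding sequences are shown because they bear on how well counts of these genes can be told apart. Each line gives the last 150 coding bases 5′ to 3′ (GRCm38, minus strand, at chr16:19061755-19061904, chr16:19198539-19198688 and chr16:19065368-19065517), with capitals at bases found in that gene alone among the 3.
Iglc1: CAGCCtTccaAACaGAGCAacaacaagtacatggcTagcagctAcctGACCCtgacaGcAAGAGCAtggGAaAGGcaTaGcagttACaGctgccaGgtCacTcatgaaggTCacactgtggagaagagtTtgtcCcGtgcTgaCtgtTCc
Iglc2: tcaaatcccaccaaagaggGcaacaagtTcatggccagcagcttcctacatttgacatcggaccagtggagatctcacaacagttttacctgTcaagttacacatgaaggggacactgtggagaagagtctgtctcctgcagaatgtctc
Iglc3: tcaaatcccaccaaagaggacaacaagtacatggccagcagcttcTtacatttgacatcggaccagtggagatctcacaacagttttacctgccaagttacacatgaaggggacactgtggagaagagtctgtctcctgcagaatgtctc
Iglc1 had 51 bases of its own in this stretch, Iglc2 had 3 and Iglc3 had 1. Iglc2 and Iglc3 differed at 4 positions there and shared 96.2% of the aligned coding sequence, so counts split between these 2 genes are uncertain. Iglc1 shared 73.8% and 74.9% with Iglc2 and Iglc3. Nevertheless, some single cells separated Iglc2 from Iglc3, while another held both. One antibody-secreting cell held 4607 Iglc2 UMIs beside 9 of Iglc3, and another held 4687 Iglc3 UMIs beside 0 of Iglc2. In contrast, cell C16 held 2126 Iglc3 UMIs beside 334 of Iglc2. The untranslated 3′ ends were not compared.

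The tails of the secreted heavy chains differ at the cysteine that J chain binds. The last 90 coding bases, without the stop codon, are shown 5′ to 3′ for the 4 members that led in antibody-secreting cells of these tumors (GRCm38, minus strand of chromosome 12, at 113420870 to 113420959, 113258771 to 113258860, 113306392 to 113306481 and 113359668 to 113359757 in the order below), and capitals mark a cysteine codon just before the last codon.
Ighm: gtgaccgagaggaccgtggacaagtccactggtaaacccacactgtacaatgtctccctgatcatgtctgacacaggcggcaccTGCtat
Igha: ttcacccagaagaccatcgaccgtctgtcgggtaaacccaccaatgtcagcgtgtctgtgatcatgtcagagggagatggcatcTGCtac
Ighg2b: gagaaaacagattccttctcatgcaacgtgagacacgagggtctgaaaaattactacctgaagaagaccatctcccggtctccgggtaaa
Ighg3: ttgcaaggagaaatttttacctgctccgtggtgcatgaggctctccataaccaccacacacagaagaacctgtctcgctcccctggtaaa
Ighm and Igha end with this codon before a last tyrosine codon. Ighg2b and Ighg3 lack it. Of the other heavy chain genes counted, Ighg2c, the C57BL/6 counterpart of Ighg2a, shared 85.9% of the aligned coding sequence with Ighg2b.

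Antibody-secreting cells held most of the RNA of the 10 genes in both libraries. With control IgG, 21 cells (0.239% of kept cells, interval 0.148 to 0.366) held 89.7% of all UMIs of the 10 genes in kept cells, and only 0.443% of all UMIs. With the antibody, 5 cells (0.0783%, 0.0254 to 0.183) held 79.1%, and 0.136% of all UMIs. With mixed-marker cells taken out of the class but not of the total, the shares held were 43.9% and 43.7%. The share of antibody-secreting cells among kept cells was 3.06-fold higher with control IgG (log2 of antibody over control IgG −1.61, interval −3.38 to −0.17). With cells that carried 2 or more markers of another class left out, 10 and 3 cells remained and the log2 ratio was −1.28 (−3.78 to 0.68). As a share of B-lineage cells the values were 7.24% and 3.11%, with a log2 ratio of −1.22 (−2.98 to 0.22) whose interval includes no difference. B cells were 3.07% and 2.44% of kept cells. A single cell held 9.70% of the control library's kept-cell UMIs of the 10 genes and 36.1% of the antibody library's, so levels of the antibody library rest on very few cells.

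Within single antibody-secreting cells the 10 genes took from 5.54% to 74.1% of all UMIs with control IgG (median 40.1%) and from 1.56% to 70.4% with the antibody (median 32.6%). B cells of the same libraries had medians of 0.868% and 0.841%. The cell with 1.56%, called A5, had 7 of 8 B cell markers and no Jchain UMI, and a control cell with 11.9%, called C19, had all 8 B cell markers. Cells C20 at 9.03% and C21 at 5.54% had 3 each. The gate on secretory markers thus held cells in which the 10 genes took a far smaller share of UMIs than in most others. In B cells of the antibody library that share ran from 0.0973% to 3.65%, a range that includes A5. By these values A5 was not set apart from B cells, and it remains in the counts of 5 cells below. These are shares and not amounts, since C20 and C21 had 21782 and 28542 UMIs in all, above the control median of 17322. Of the 21 control cells 7 held 2 or more of 5 T cell markers, and 3 held all 5, C20 among them. Of the 5 cells of the antibody library 2 held 2 or more. The part of second cells in the same droplets was not tested.

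**Figure D1:**
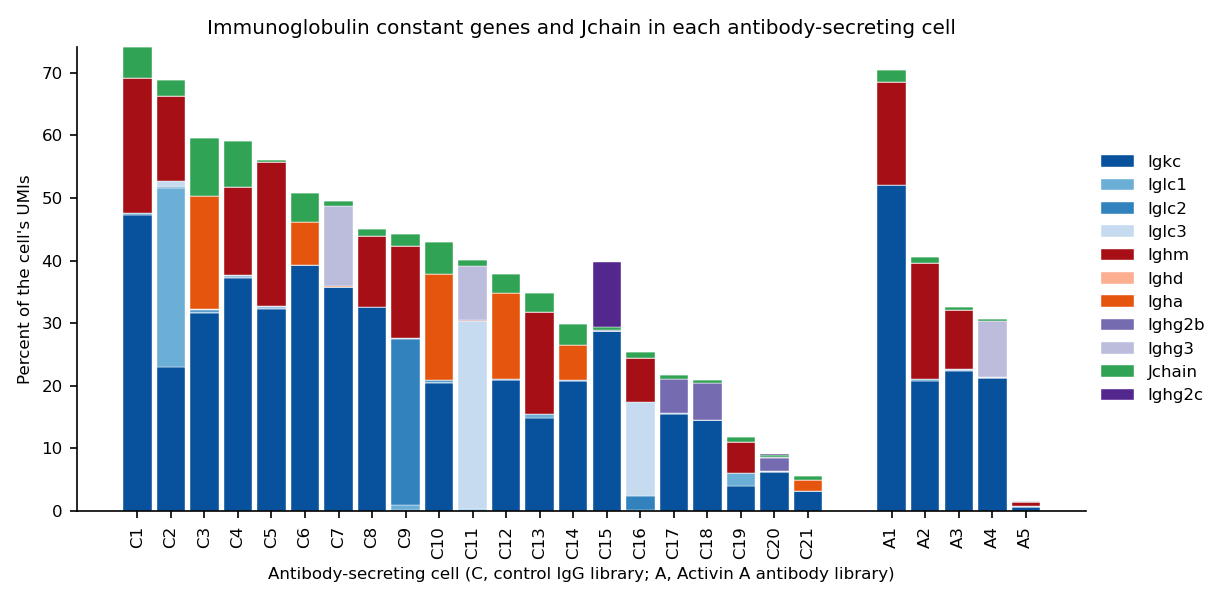
Percent of all UMIs of each antibody-secreting cell (vertical axis) taken by each of the 10 genes and by Ighg2c, for 21 cells of the control IgG library (C1 to C21) and 5 of the Activin A neutralizing antibody library (A1 to A5), ordered by the share of the 10 genes. Each bar is 1 cell. Nearly every cell shows 1 light chain color and 1 heavy chain color, orange (Igha) and purple (Ighg2b, Ighg2c) bars occur in control cells alone, and A5 at 1.56% is the lowest bar.

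Among light chains, Igkc, the kappa constant gene, led in 17 of 21 control cells and in 5 of 5 cells of the antibody library. Lambda genes led in the other 4 control cells. Cell C9 held 4607 Iglc2 UMIs with 38 of Igkc. Cell C11 held 4687 Iglc3 UMIs and 0 of Igkc, and C16 held 2126 of Iglc3, 334 of Iglc2 and 0 of Igkc. Cell C2 carried both kinds, with 5004 Iglc1 UMIs and 4040 of Igkc. The leading light chain gene took 95% or more of a cell's light chain UMIs in 18 of 21 and 4 of 5 cells, and the exceptions were C2, C16, C19 and A5. Because the lambda-led cells were so few, the class levels of the lambda genes turned on them. C2 alone held 78.2% of the kept-cell Iglc1 UMIs of the control library, C9 73.7% of Iglc2 and C11 60.4% of Iglc3.

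Among heavy chains, 1 isotype took 95% or more of the constant gene UMIs in 20 of 21 and 4 of 5 antibody-secreting cells. With control IgG, Ighm led in 9 cells (42.9%, interval 21.8 to 66.0), Igha, the constant gene of mucosal IgA, in 6 cells (28.6%, 11.3 to 52.2), Ighg2b in 3, Ighg3 in 2 and Ighg2c in 1. With the antibody, Ighm led in 4 cells, A5 among them (80.0%, 28.4 to 99.5), and Ighg3 in 1. The intervals of these shares overlap between the libraries. A count of 0 of 5 for Igha-led cells allows a share of up to 52.2% (Clopper-Pearson), which is above the 28.6% seen with control IgG. Thus a difference in isotype use by cell was not detectable with 5 cells. In the exception C20, Ighg2b held 462 UMIs with 19 of Ighg3, 5 of Ighg2c and 3 of Igha, and in A5 Ighm held 80 with 7 of Ighg3. Light chain UMIs outnumbered heavy chain UMIs by a median of 2.46 and 2.39 times per cell, with a range over both libraries of 0.954 to 5.84. Cells that differed in isotype were thus alike in making more light than heavy chain RNA, with 2 cells as exceptions, C13 at 0.960 and A5 at 0.954.

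Jchain, the joining chain of polymeric IgM and IgA, was found in all 21 control antibody-secreting cells and in 4 of 5 with the antibody, with A5 at 0. Relative to heavy chain UMIs of the same cell, Jchain ran from 21.9% to 69.9% in the 6 Igha-led control cells (median 41.9%) and from 5.54% to 18.2% in the 6 control cells led by an IgG gene (median 10.0%). These ranges did not overlap. Ighm-led control cells spanned both, from 1.44% to 52.2% (n = 9, median 15.8%), with C5 lowest at 36 Jchain UMIs beside 2504 of Ighm. In the antibody library the 4 Ighm-led cells ran from 0 to 11.9% and the Ighg3-led cell was at 5.01%. Of these 4 Ighm-led cells 3, at 0, 5.41% and 5.63%, lay below 8 of the 9 Ighm-led control cells. Jchain RNA was thus present in cells led by Ighg2b and Ighg3, whose tails shown above lack the cysteine codon, and in the cell led by Ighg2c, whose tail is not shown. Cells of a library are not replicates, and no test was made.

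**Figure D2:**
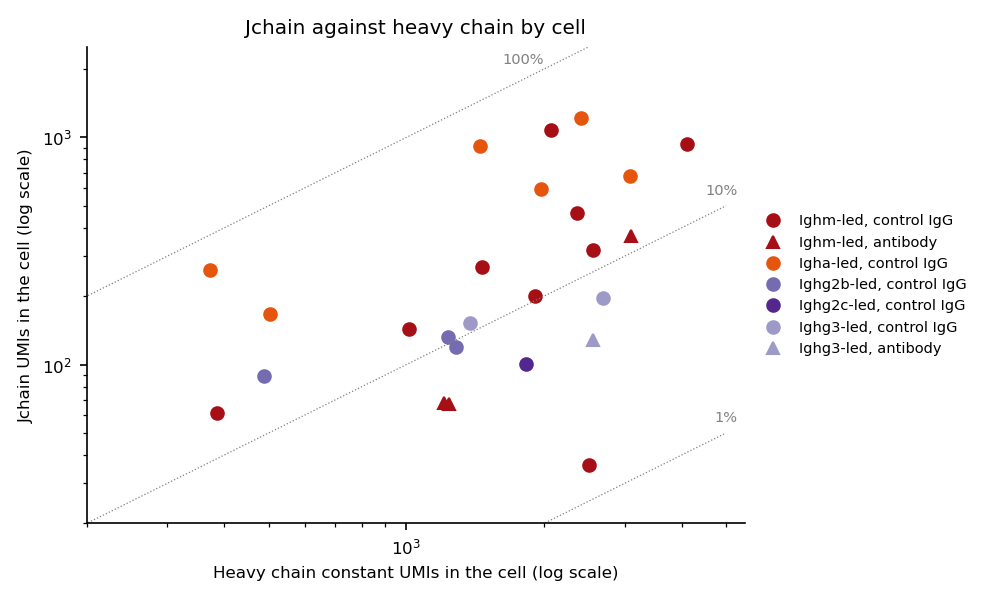
Jchain UMIs (vertical axis, log scale) against heavy chain constant UMIs (horizontal axis, log scale) in each antibody-secreting cell, colored by leading heavy chain gene, with circles for control IgG and triangles for the Activin A neutralizing antibody. Dotted lines mark Jchain at 100%, 10% and 1% of heavy chain UMIs, and A5, at 0 Jchain UMIs, is not drawn. The 6 Igha-led cells lie at 21.9% or more, and the 7 cells led by an IgG gene lie between 5.01% and 18.2%.

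Antibody-secreting cells differed from B cells of the same library in nearly all of the 10 genes. In the control library 9 of 10 genes were at least 2-fold higher in antibody-secreting cells, where 4.78% of 7889 genes with at least 20 UMIs were. Jchain showed the widest gap, with 22901 CPM (8138 UMIs) against 3.10 CPM (4 UMIs), followed by Igha with 27565 against 11.6 CPM. Igkc stood at 196120 against 3643 CPM and Ighm at 51825 against 1700.4 CPM, ratios of 53.8 and 30.5. Ighd, the IgD gene that B cells splice from the same primary transcript as Ighm, went the other way with 2.81 CPM (1 UMI) against 477 CPM (616 UMIs), a log2 ratio of −7.41 (−12.7 to −4.92), where 46.4% of genes were at least 2-fold lower. In the antibody library 9 genes had 20 UMIs or more, and 5 of them were at least 2-fold higher (Igkc, Iglc1, Ighm, Ighg3 and Jchain, background 4.61% of 5402 genes) and 2 lower (Ighd and Igha, background 57.2%), of which Igha rests on 0 UMIs against 23. There Jchain stood at 8069.9 against 1.48 CPM, and Ighd at 0 UMIs against 621 CPM.

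Genes of the secretory apparatus were also compared between these cells. Of 19 listed, 17 were at least 2-fold higher in control antibody-secreting than in B cells, where 4.78% of genes were. However, 10 of the 19 are markers of the gate. With the antibody 12 of 16 with enough UMIs were higher, where 4.61% of genes were. Irf4 was there at least 2-fold lower, where 57.2% of genes were. The values that follow are of the control library. Hsp90b1, a chaperone of the endoplasmic reticulum, stood at 4027 against 398 CPM, and Sec11c, a subunit of the signal peptidase, at 1787 against 177 CPM. Of 12 B cell receptor partners and regulators 11 were at least 2-fold lower, where 46.4% of genes were, among them Cd79a (540.3 against 1398 CPM), a marker of the B cell gate. The 10 genes took 36.9% and 37.5% of antibody-secreting cell UMIs in the 2 libraries, against 0.748% and 0.797% in B cells. This lowers the CPM of every other gene in antibody-secreting cells, and calls of lower genes are in part set by it. Levels over the UMIs of the other genes alone were not compared here. In both libraries all 5 follicular B cell genes were at least 2-fold lower, where 46.4% of genes were with control IgG and 57.2% with the antibody.

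B cells carried mostly unswitched IgM and IgD RNA. An Ighm UMI was found in 95.9% of control B cells (interval 92.8 to 97.9) and 96.8% with the antibody (92.7 to 98.95), an Ighd UMI in 79.2% and 82.7%, and an Igkc UMI in 93.3% and 94.9%. With each cell thinned to 2000 UMIs the shares with an Ighm UMI were 89.5% and 93.2%. A B cell held a median of 15 and 12 Igkc UMIs, 6 and 7 of Ighm and 2 and 2 of Ighd. Ighm outnumbered Ighd 3.56 times and 3.09 times over all B cells. Lambda UMIs exceeded those of Igkc in 35 of 256 control B cells with at least 5 light chain UMIs (13.7%, 9.71 to 18.5) and in 12 of 147 with the antibody (8.16%, 4.29 to 13.8). These intervals overlap. Cells in which a switched isotype had at least 3 UMIs and more than Ighm and Ighd together numbered 7 of 269 (2.60%, 1.05 to 5.29) and 5 of 156 (3.21%, 1.05 to 7.32).

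The leading isotypes of these switched B cells are given by cell, some from as few as 4 UMIs. With 7 and 5 cells no difference between the libraries can be read from them. With control IgG 4 of the 7 were led by Ighg2b, 2 by Ighg3 and 1 by Ighg2c. With the antibody 2 of the 5 were led by Igha and 1 each by Ighg2b, Ighg1 and Ighg3. The Ighg3-led cell held 99 of the 104 Ighg3 UMIs found in B cells of its library. The most Ighg2b UMIs in 1 control B cell were 46 of 86, and the 15 Igha UMIs of control B cells lay in 10 cells with at most 5 each. Jchain was near 0 in B cells, with 4 UMIs in 4 of 269 cells and 1 UMI in 1 of 156.

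The comparison that the study was designed for, neutralization of Activin A against control IgG, was made first in all B-lineage cells. The 10 genes together were at 85406 CPM with control IgG and 45979 CPM with the antibody, a log2 ratio of −0.89 (−0.91 to −0.88), while the median gene shifted by 0.07. Igha, at 5957 CPM with control IgG, was at 30.5 CPM with the antibody (−7.61, interval −8.27 to −7.02). Ighg2b was at 1869 and 23.9 CPM (−6.29, −7.05 to −5.63). The lambda genes were at 3829 and 227 CPM for Iglc1 (−4.08, −4.31 to −3.86), at 3721 and 602 CPM for Iglc2 (−2.63, −2.77 to −2.49) and at 4535 and 304 CPM for Iglc3 (−3.90, −4.10 to −3.71). Jchain was at 4944 and 838 CPM (−2.56, −2.68 to −2.44). These 6 genes were at least 2-fold lower with the antibody, where 6.47% of 8885 genes with at least 20 UMIs were, and 0 of 10 were at least 2-fold higher (2.66% of genes). Igkc (45175 and 30691 CPM) and Ighm (12516 and 9173 CPM) had log2 ratios of −0.56 and −0.45, and Ighd (375 and 557 CPM) and Ighg3 (2485 and 3534 CPM) had ratios of 0.57 and 0.51.

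The summed difference rested on the antibody-secreting cells. With them left out, the 10 genes together had a log2 ratio of 0.092 (0.043 to 0.14), and with the 5 cells richest in the 10 genes left out of each library, −2.93. Iglc1 and Ighg2b stayed at least 2-fold lower without the antibody-secreting cells, at −1.74 and −1.32. With the top cell of each gene left out, Iglc1 was at −1.97, Iglc2 at −0.83, short of 2-fold, and Iglc3 at −2.62. With mixed-marker cells left out, Iglc1 was at −1.94, Iglc2 at −0.90 and Ighg2b at −1.83. The ratio of Ighg3 turned from 0.51 to −2.49 with its top cell left out of each library. In antibody-secreting cells alone the summed level was 368613 and 374552 CPM (log2 0.023), beside a median shift of −0.22 over all genes, while the make-up differed. Igha and Ighg2b had 9795 and 2992 UMIs with control IgG and 0 with the antibody. Taking 3 UMIs over the class as the limit, that is 718-fold and 219-fold lower or more in the UMIs counted. These folds do not bound the difference over cells, since Igha led in 6 and Ighg2b in 3 of 21 control cells. A count of 0 of 5 cells allows a share of up to 52.2% for either. The lambda genes had log2 ratios of −4.48 for Iglc1, −4.28 for Iglc2 and −5.25 for Iglc3. Jchain was at 22901 and 8069.9 CPM (−1.50, −1.62 to −1.39), Igkc at 196120 and 259848 CPM (0.41), Ighm at 51825 and 71900 CPM (0.47) and Ighg3 at 11440 and 32753 CPM (1.52). Of the 9 genes with 20 UMIs or more 6 were at least 2-fold lower (background 20.9% of 2282 genes) and Ighg3 alone was at least 2-fold higher (4.43%). With 5 cells in this class of the antibody library, each leading isotype there rests on 1 to 4 cells.

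In B cells the 10 genes together were at 7482 and 7973 CPM, and the median gene shifted by 0.027. Igkc was at 3643 and 4185 CPM (log2 0.20, 0.13 to 0.27), Ighm at 1700.4 and 1917 CPM (0.17, 0.07 to 0.27), Ighd at 477 and 621 CPM (0.38, 0.20 to 0.56) and Iglc3 at 280.3 and 278 CPM (−0.01, −0.27 to 0.25). Iglc1 was lower with the antibody, at 571 and 172 CPM (−1.74, −2.03 to −1.45), and of its 738 control UMIs the richest cell held 94. Ighg2b was at 66.6 and 26.6 CPM (−1.32, −2.14 to −0.58), Igha at 11.6 and 34.0 CPM (1.55, 0.55 to 2.59) and Ighg3 at 20.9 and 154 CPM (2.88, 2.26 to 3.55). Of 9 genes with 20 UMIs or more 2 were thus at least 2-fold lower (background 6.76% of 8516 genes) and 2 at least 2-fold higher (2.04%). Of the Ighg2b UMIs 1 cell held 46 of 86 with control IgG and 1 cell held 7 of 18 with the antibody. The Ighg2b ratio thus rests largely on 1 control cell. Igha was found in 3 cells of the antibody library. The Ighg3 ratio rests on the 1 cell with 99 of 104 UMIs, which leaves 5 against 27 UMIs with control IgG.

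**Figure D3:**
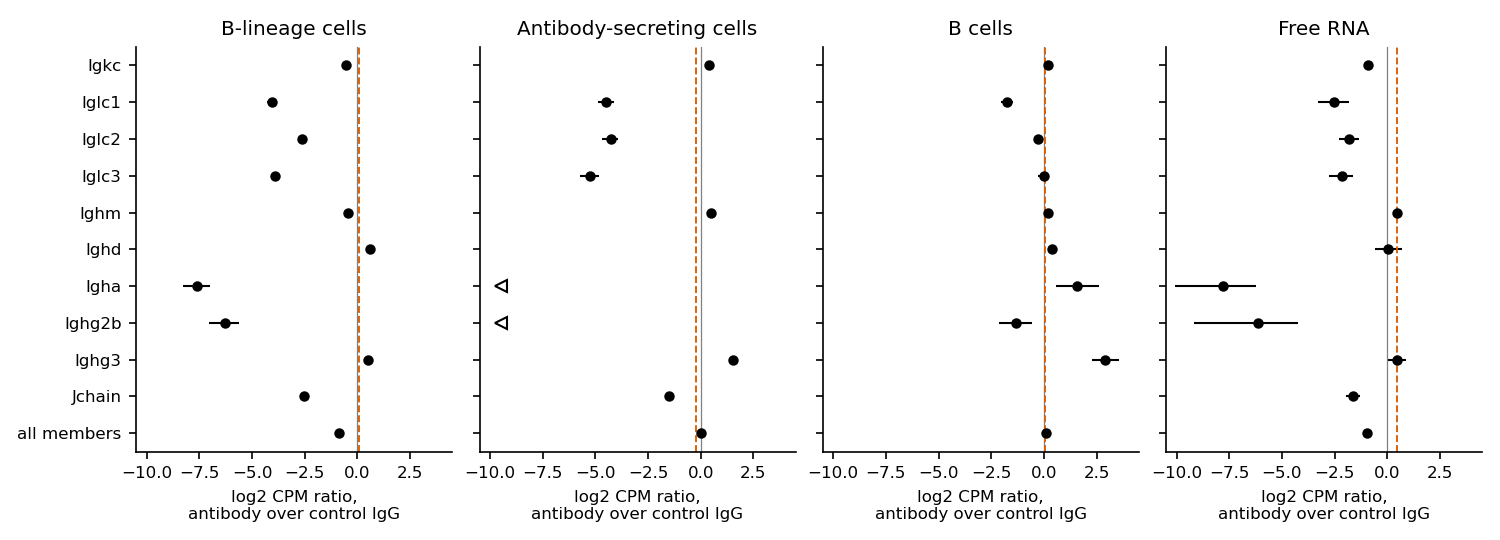
Log2 ratio of CPM, Activin A neutralizing antibody over control IgG (horizontal axis), for each of the 10 genes and their sum in 4 pools. Points are ratios with 95% intervals of counting error, the dashed line is the median of all genes, open triangles mark genes with 0 UMIs in the antibody library (placed at the edge, not at a value), and genes under 20 UMIs are not drawn. Igha at −7.61 and −7.80 is the lowest point in B-lineage cells and in free RNA, while its point in B cells is at 1.55.

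Other genes of the B lineage were compared by list. Of 19 secretory genes 6 were at least 2-fold lower with the antibody in B-lineage cells and 0 higher, with a list median of −0.60 beside 0.07 for all genes, where 6.47% of all genes were lower and 2.66% higher. Within B cells 1 of 16 was lower and 1 higher (median 0.073 beside 0.027), and within antibody-secreting cells 4 of 19 were lower and 0 higher (median −0.17 beside −0.22), where 20.9% of genes were lower. Within each class the list median thus lay close to that of all genes. The 6 lower in B-lineage cells together included Txndc5, Fkbp11 and Edem1, which act on folding proteins of the endoplasmic reticulum. The others were Sdc1 and Tnfrsf17, surface markers of plasma cells, and Eaf2, a transcription elongation factor. Of the 6, all but Edem1 are markers of the antibody-secreting gate, which held 21 and 5 cells. Their lower level in the pool is thus not independent of these cell numbers. Of 12 receptor partners and regulators 0 passed 2-fold in either direction (median 0.36), and Cd79a was at 1213 and 1209 CPM. Of 5 class switch and germinal centre genes with enough UMIs 1 was lower (Fas, log2 −1.57) and 1 higher (Ung, 1.25, interval −0.06 to 2.57). Of 7 genes of B-1 cells 1 was lower (Cd9, −1.90). None of the 5 follicular genes passed 2-fold. Of 6 receptors of immunoglobulin 1 was lower (Fcgr1, −1.14, −2.88 to 0.28). With control IgG Fcgr1 was at 344 CPM in macrophages and monocytes, against 14.6 CPM in B-lineage cells. Of the B-lineage cells 10% with control IgG and 2.48% with the antibody held 2 or more macrophage and monocyte markers. The part of macrophage RNA in the Fcgr1 ratio was not tested. Lists of 5 to 7 genes are too short for 1 call to be set against the shares over all genes (6.47% lower, 2.66% higher).

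RNA of the 10 genes was also found outside cells. In barcodes under 100 UMIs, taken as droplets without a cell and called free RNA, their summed level was 1053 CPM with control IgG and 547 CPM with the antibody (log2 −0.95, −1.01 to −0.88). The median gene shifted by 0.44 in free RNA, so the summed ratio relative to all genes was −1.39. Igha gave 909 UMIs (145 CPM) and 3 UMIs (0.650 CPM), a log2 ratio of −7.80 (−10.1 to −6.25), and Ighg2b 188 and 2 UMIs (−6.11, −9.17 to −4.24). Jchain was at 58.3 and 19.1 CPM (−1.61), Igkc at 589 and 310 CPM (−0.93) and the lambda genes ran from −2.53 for Iglc1 to −1.80 for Iglc2. Ighm (120.3 and 166 CPM) and Ighg3 (16.1 and 22.1 CPM) had ratios of 0.46 and 0.46, at the median of all genes, and Ighd was at 8.12 and 8.45 CPM. Of 10 genes 6 were at least 2-fold lower, where 0.757% of 12675 genes were, and 0 at least 2-fold higher, where 9.35% were. The 6 were Iglc1, Iglc2, Iglc3, Igha, Ighg2b and Jchain. Free RNA and B-lineage cells came from the same 2 libraries. Against kept cells of the same library, 5 of 10 genes were at least 2-fold lower in free RNA with control IgG (Iglc1, Iglc2, Iglc3, Ighm and Ighg3, background 28.1% of 17205 genes) and 0 higher (3.46%). With the antibody Ighg3 alone was lower (8.02% of 16561 genes) and 0 of 10 were higher (4.64%).

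Isotype shares of heavy chain UMIs differed between free RNA and antibody-secreting cells in the control library. The shares in antibody-secreting cells are sums over 21 and 5 cells, and the spread between these cells is not in them. Counted by cell, Igha led in 28.6% (11.3 to 52.2) and Ighm in 42.9% (21.8 to 66.0) of control cells. Both intervals include the shares of free RNA given next. Igha made up 44.1% of heavy chain UMIs in free RNA (41.9 to 46.2) but 26.4% in antibody-secreting cells, and Ighm 36.6% (34.5 to 38.7) against 49.7%. Ighg3 made up 4.90% against 10.96% and Ighg2b 9.11% against 8.07%. In the antibody library Ighm made up 83.9% of free heavy chain UMIs (81.3 to 86.2) and 68.7% in antibody-secreting cells, and Ighg3 11.2% against 31.3%. Cell A4 alone held 2554 of the 2561 Ighg3 UMIs of these antibody-secreting cells. Igha was there at 0.329% of free heavy chain UMIs and at 0 of 8183 in antibody-secreting cells. Of all the UMIs that the control library held of a gene, the share in free RNA ran from 2.26% for Iglc1 to 8.23% for Igha, beside 6.39% for all genes. In the antibody library it ran from 3.62% for Ighg3 to 12.0% for Jchain, beside 6.23%.

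**Figure D4:**
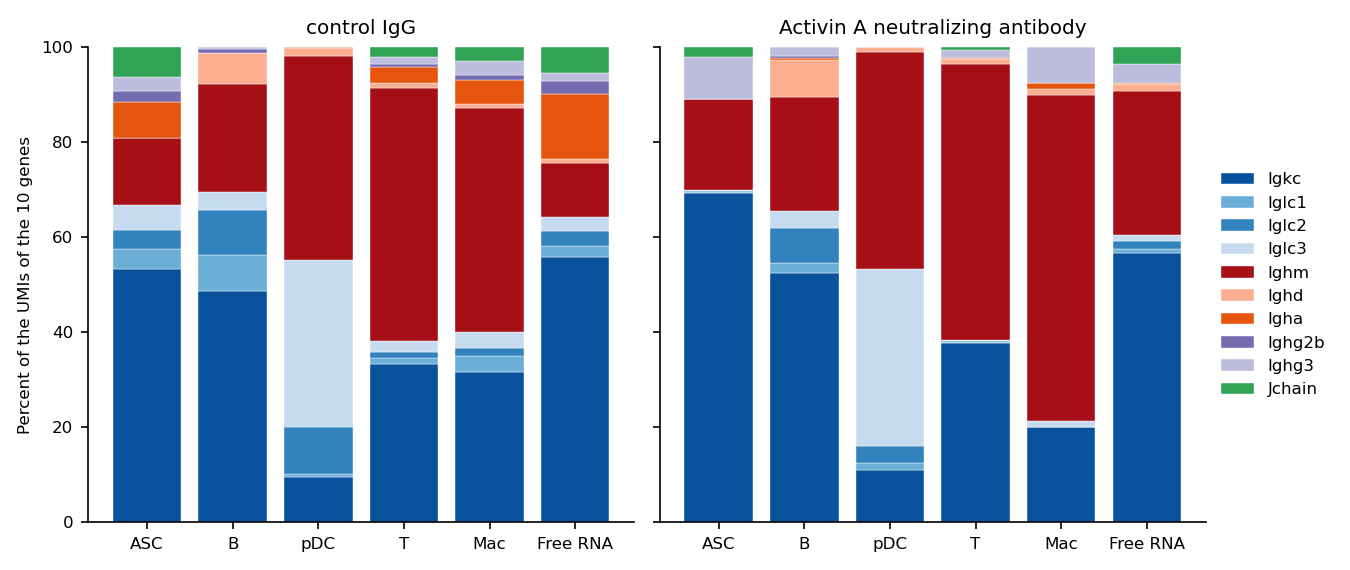
Make-up of the UMIs of the 10 genes (vertical axis, percent) in antibody-secreting cells (ASC), B cells (B), plasmacytoid dendritic cells (pDC), T cells (T), macrophages and monocytes (Mac) and free RNA, for each library. Each bar sums to 100%. Igkc is the largest part in ASC, B cells and free RNA, Ighm is the largest in T cells and macrophages (53.3% and 58.1% of the 10 genes in T cells), and Igha is 13.8% of the bar of free RNA with control IgG and 0.119% with the antibody.

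Outside the B lineage an UMI of any of the 10 genes was found in 36.2% of control cells and 20.8% of cells with the antibody, at summed levels of 67.8 and 41.6 CPM. The highest single cells held 31 and 52 UMIs. Cells with 20 or more numbered 9 and 8, and held 4.13% and 10.2% of these UMIs. Of them 6 and 8 carried 1 or 2 B cell markers, short of the 3 that the B cell gate needed. T cells, which do not make antibodies, held 86.2 and 57.3 CPM, which is 8.19% (7.90 to 8.49) and 10.5% (9.92 to 11.1) of the free RNA level of the same library. Cancer cells held 22.2 and 4.02 CPM, fibroblasts 32.4 and 7.70 CPM, and macrophages and monocytes 55.7 and 24.1 CPM. Igha and Jchain were lower here too with the antibody, with Igha at 2.99 and 0.124 CPM over all cells outside the B lineage and Jchain at 1.39 and 0.265 CPM. Of 10 genes 5 were at least 2-fold lower with the antibody (background 2.92% of 18037 genes) and 0 higher (3.14%).

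Ighm in cells outside the B lineage was not in the ratio of free RNA. Free RNA held 0.204 Ighm UMIs per Igkc UMI with control IgG (0.189 to 0.221) and 0.535 with the antibody (0.489 to 0.584). In T cells the ratio was 1.60 (1.48 to 1.73) and 1.54 (1.37 to 1.73), and in NK cells 4.27 (2.66 to 7.14) and 15.2 (6.24 to 48.2). In macrophages and monocytes it was 1.48 (1.25 to 1.77) and 3.44 (1.94 to 6.43), and in conventional dendritic cells 5.08 (2.71 to 10.4) and 21 (5.46 to 179). In fibroblasts it was 0.566 (0.349 to 0.902) and 0.375 (0.120 to 1.01), and in cancer cells 0.405 (0.307 to 0.531) and 0.575 (0.329 to 0.984). T cells, NK cells, macrophages and conventional dendritic cells thus held more Ighm relative to Igkc than free RNA of their library. So did fibroblasts and cancer cells with control IgG, whose intervals lay above that of free RNA. In the antibody library the intervals of fibroblasts and cancer cells, from 16 and 40 Igkc UMIs, included the ratio of free RNA. The ratios of NK cells, conventional dendritic cells and macrophages and monocytes in that library rest on only 5, 2 and 16 Igkc UMIs. Thinned to 2000 UMIs, 9.40% of control T cells (8.60 to 10.2) and 7.50% with the antibody (6.69 to 8.38) had an Ighm UMI, against 5.28% (4.23 to 6.50) and 3.02% (1.70 to 4.94) of macrophages and monocytes, and 1.88% of fibroblasts (0.514 to 4.74) and 0.923% of cancer cells (0.191 to 2.67) with control IgG. Unthinned, the shares were 19.9% and 14.3% of T cells, and with control IgG 13.5% of macrophages and monocytes, 12.1% of fibroblasts and 19.1% of cancer cells. Median depths in that library were 5034.5 UMIs in T cells, 7279 in macrophages and monocytes, 14982 in fibroblasts and 55440 in cancer cells.

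Plasmacytoid dendritic cells, the type I interferon producers among dendritic cells, held several of the genes above the level of free RNA. Ighm was at 747 CPM with control IgG and 902 CPM with the antibody, and Iglc3 at 613 and 733 CPM, in 40 and 32 cells. An Ighm UMI was found in 39 of 40 and 32 of 32 cells and an Iglc3 UMI in 31 of 40 and 26 of 32, with medians of 3 and 3.5 Iglc3 UMIs per cell. These levels were above those of free RNA, where Iglc3 was at 29.2 and 6.50 CPM. They exceeded Iglc3 in B cells (280.3 and 278 CPM) and were below Ighm in B cells (1700.4 and 1917 CPM). Of the Iglc3 UMIs outside the B lineage 54.2% and 80.0% were in these few cells. The closely similar Iglc2 was at 170.05 and 69.4 CPM, which was 501% (363 to 675) and 711% (389 to 1193) of the free RNA level, and Ighd at 27.7 and 19.8 CPM (7 and 4 UMIs). However, Iglc2 was found in only 8 of 40 and 2 of 32 cells, with at most 10 and 8 UMIs in a cell. Its level is thus not a trait of most of these cells. The split between Iglc2 and Iglc3 is uncertain, as above. Iglc1 was at 11.9 and 29.7 CPM, found in 3 of 40 cells and in 1 of 32, which held 6 UMIs. Igkc was at 166 and 218 CPM, below free RNA, and Ighg2b, Ighg3 and Jchain had 0 UMIs in both libraries, where 3 UMIs would be 11.9 and 14.9 CPM. Cd79a, Ms4a1 and Cd22 had 0 UMIs in all 72 cells, and Fcrla, also a B cell marker, was found in 24 of 40 and 20 of 32. Cd79b was found in 6 of 40 and 1 of 32, Bank1 in 2 of 40 and 1 of 32 and Pax5 in 0 of 40 and 1 of 32. Cells with 3 or more of the 8 B cell markers were classed as B cells, so low values here are in part set by the gate. Between the libraries both intervals included no difference, with log2 ratios of 0.26 (−0.08 to 0.59) for Iglc3 and 0.27 (−0.03 to 0.57) for Ighm. With cells that carried 2 or more markers of another class left out, Iglc3 was at 527 and 1070 CPM.

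**Figure D5:**
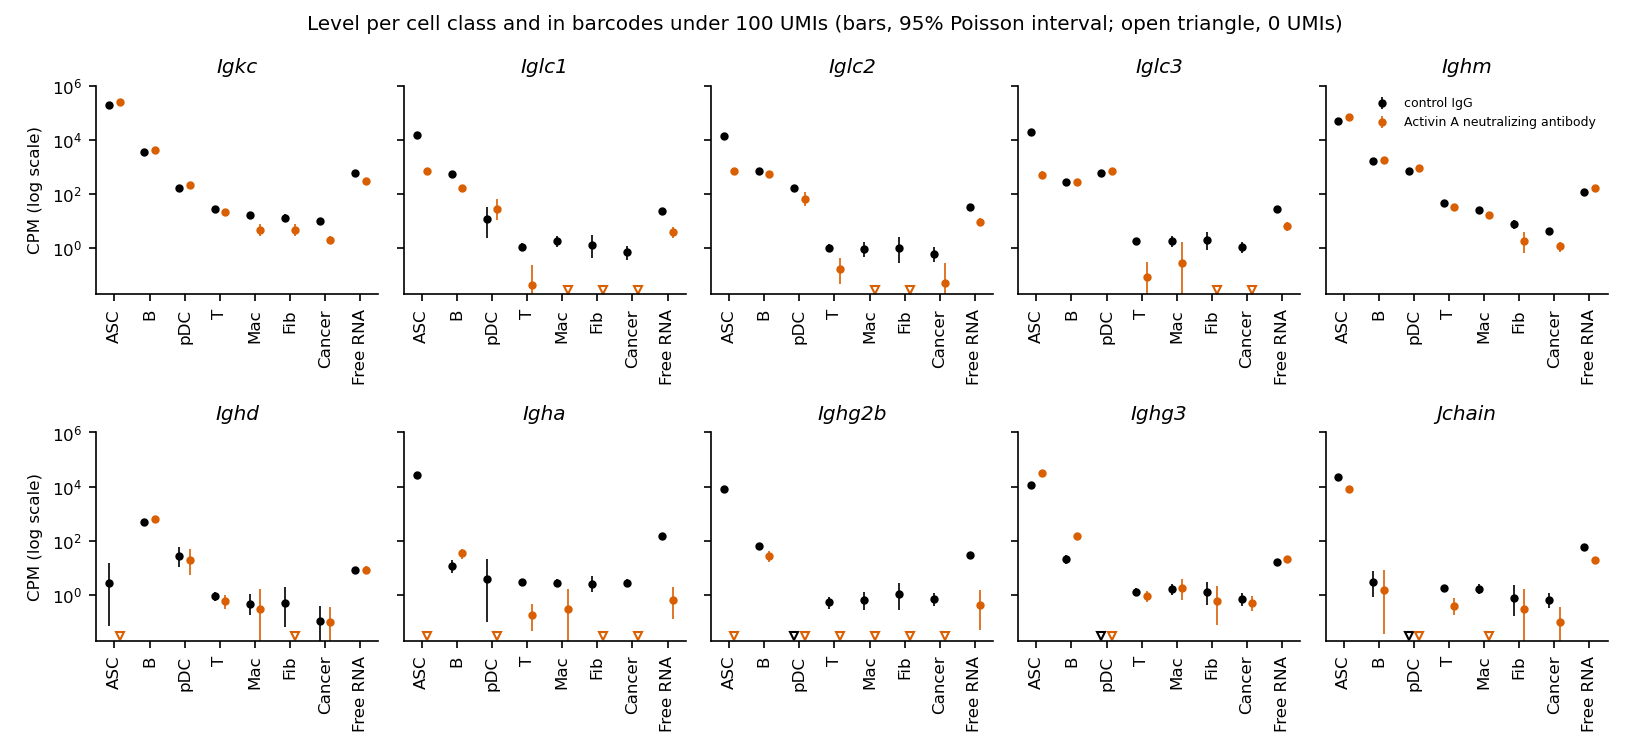
CPM of each of the 10 genes (vertical axis, log scale) in antibody-secreting cells (ASC), B cells (B), plasmacytoid dendritic cells (pDC), T cells (T), macrophages and monocytes (Mac), fibroblasts (Fib), cancer cells (Cancer) and free RNA, with control IgG in black and the Activin A neutralizing antibody in orange. Bars are 95% Poisson intervals and open triangles at the lower edge mark 0 UMIs. Iglc3 in pDC, at 613 and 733 CPM, is above B cells, Ighm in pDC, at 747 and 902 CPM, is below B cells, and Jchain is high in ASC alone.

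Over all kept cells the 10 genes together were at 1820.0 and 645 CPM (log2 −1.50, −1.51 to −1.48). Of 10 genes 8 were at least 2-fold lower with the antibody, all but Ighd and Ighg3 (background 3.03% of 18122 genes), and 0 were higher (3.09%). Ighd, which was 90.7% and 91.7% in B cells, was at 8.47 and 7.98 CPM (−0.086, −0.26 to 0.09). Ighg3 was at 52.2 and 47.1 CPM (−0.15), and 94.4% of its UMIs in the antibody library came from 1 cell.

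The genes most like each member in level over the 28 pools of class and library were found by Spearman's rank correlation, a description over pools that share libraries and free RNA. The light chain genes were most like each other, with 0.91 between Iglc2 and Iglc3, 0.90 between Iglc1 and Iglc2 and 0.87 between Igkc and Iglc2. Jchain was closest to Gm46447 (0.85), Pou2af1, a coactivator of immunoglobulin transcription (0.85), and Vpreb3 (0.82). Igha was closest to 4930556J24Rik (0.88, 157 UMIs) and Ighg2b to Eqtn (0.75, 62 UMIs), both genes of few UMIs. Ighg2c was among the closest 3 of both (0.83 and 0.74), at rank 2 and rank 3. Ighm was closest to Umad1 (0.89) and Far1 (0.88), and Ighd to Nek7 (0.81).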

How the data were processed

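Single-cell 3′ RNA was measured in 2 libraries, 1 for each group of pooled mice. The values deposited by the authors are UMI counts, neither normalized nor filtered, for every gene and droplet barcode. The file headers name Cell Ranger version 4, while the submitters' processing notes give Cell Ranger 7.0.1 and build mm10. Labels and methods of the study also differ in the number of mice, the days of treatment and the chemistry, and the labels were followed.

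The limits of the study were applied to barcodes: genes between 1000 and 8500, total UMIs between 1000 and 100000, and a mitochondrial share of 10% or less. Cells were gated by markers in 15 classes. Antibody-secreting cells had fewer than 3 cancer cell markers. A class other than the 2 of the B lineage needed at least 0.5 of its markers, a larger share than of any other such class. The remaining 826 and 754 cells were left unassigned. UMIs were summed per class, and barcodes under 100 UMIs served as free RNA. No doublet caller was run, and cells with 2 or more markers of another class were left out as an alternative. A gene was called where CPM differed at least 2-fold, with at least 20 UMIs over both libraries, which is a rule of size and no test. Where 1 library had 0 UMIs, 3 UMIs were taken as the limit. Shares were also taken after thinning to 2000 UMIs (seed 1). The intervals of log2 ratios were tried on simulated Poisson counts, the same model that they assume. The simulation held no differences between cells, so it cannot show how the intervals hold where few cells carry a gene.

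Sequences and positions came from GRCm38 with GENCODE M21, the assembly also named mm10, and 32235 of 32285 identifiers matched. Python 3.11.15, numpy 2.4.6, scipy 1.17.1 and pandas 2.3.3 were used. Named genes were the 10, other immunoglobulin genes, 6 gene lists and the genes most like each member. The members, gates and lists were chosen with earlier results of these data known. With 1 library per group no p-value was computed. Some genes of the lists are not reported here.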

Additional observations from a re-analysis of the deposited data

Results flagged for a closer look

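Igha differed in direction between classes. In B cells it was higher with the antibody, with a log2 ratio of 1.55 (interval 0.55 to 2.59, from 15 and 23 UMIs), and in antibody-secreting cells it had 9795 UMIs with control IgG and 0 with the antibody. The B cell value rests on 3 cells with an Igha UMI in the antibody library and 10 in the control library. The difference between the classes was not tested, since each group is 1 library.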

How the results depend on the processing

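No paired analysis was possible because only 1 library stands for each treatment, and for the same reason no library could be left out. The summed log2 ratio in B-lineage cells (−0.89) stayed below 0 in these 6 settings, at −0.92 without gene limits on cells, −0.85 with 1 more marker, −1.11 without mixed cells, −0.95 with all other genes as the denominator, −1.42 without the richest cell and −2.93 without the 5 richest cells. The last says little about stability, since it takes nearly all antibody-secreting RNA of the antibody library and leaves 16 of 21 such cells in the control library. The value was −0.87 without barcodes kept in both libraries and 0.092 without antibody-secreting cells, both settings added after seeing the data. In the last setting 2 genes in place of 6 were at least 2-fold lower and Igha turned to 1.55. Over 8 settings 74 of 80 values of single genes kept their sign. The exceptions were Ighg3 (−4.53 without mixed cells, −2.49 without its top cell, −5.65 without the 5 richest cells) and, without antibody-secreting cells, Igkc (0.20), Ighm (0.17) and Igha. Keeping a sign is a weak standard. Held to the interval of the main value, or to a set fold for counts and backgrounds, 36 values of the main results stayed, 23 moved and 1 reversed. Of the values of single genes and other details, 61 stayed, 44 moved and 1 reversed.

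The share of the UMIs held by antibody-secreting cells was 89.3% and 78.1% without gene limits, 87.8% and 78.6% with 1 more marker, and 43.9% and 43.7% without mixed cells, since those cells leave the class and stay in the total. Without mixed cells Ighm led in 100% of the 3 antibody-secreting cells left in the antibody library. The T cell level relative to free RNA (8.19% and 10.5%) was 8.57% without mixed cells in the control library, 6.41% in that library with free RNA under 50 UMIs, and 10.97% and 14.2% with free RNA of 10 to 99 UMIs. The summed ratio in free RNA was −1.23 under 50 UMIs. The background of 6.47% became 3.20% without mixed cells, 3.34% with at least 50 UMIs and 25% with at least 1. Where no construction is named, the cause was not tested. The isotypes of the antibody library rest on 5 cells.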

Other observations

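Variable genes were read in the antibody-secreting cells, and the patterns below were chosen after their values were seen. Of the 17 Igkc-led control cells 16 had a leading kappa variable gene with at least 5 UMIs, and these were 12 different genes. Cells C15, C17 and C18 shared Ighv2-9 and Igkv8-19 as leading variable genes, and the first was led by Ighg2c and the others by Ighg2b. In C17 the Ighv2-9 count was 2 UMIs. All 4 lambda-led cells had Ighv5-17 as the leading heavy variable gene (5 to 15 UMIs), which also led in the Igha-led and Igkc-led cell C10 (14 UMIs). Iglv1, a lambda variable gene, had at least 5 UMIs in 13 of the 17 Igkc-led control cells.

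Of the other constant genes, Ighg2c had 1877 UMIs in kept cells with control IgG, 1808 of them in C15, and 1 UMI with the antibody. Ighg1 had 3 and 27 UMIs, the 27 all in 1 B cell. Ighe had 0 UMIs in both libraries, where 3 UMIs over the library would be 0.0306 and 0.0405 CPM.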
